A study of Tachycineta bicolor with 20 samples.

Results

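Some transcript IDs in the ovarian count table of the tree swallow (Tachycineta bicolor) share a stem, the text before the letter t and a transcript number. A stem was taken here when 3 or more of its transcripts were listed, whatever their counts. That gave 570 transcripts of 166 stems, out of 14782 transcripts and 13412 stems in the table. Of these stems, 126 had 3 transcripts, 27 had 4, 7 had 5, 2 had 7, 2 had 8, 1 had 9 and 1 had 10.

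Tree swallows are songbirds that breed in tree holes and nest boxes, over which females fight. RNA was sequenced from the ovaries of 20 adult females. On Day 2, that is 2 days after peak competition, 4 experimental birds and 5 control birds were sampled, and at the peak, on Day 0, 6 experimental birds and 5 control birds. For the experimental, free-living females nest boxes were removed temporarily, which raised competition, and the controls were left undisturbed and sampled at matched dates. Total counts ran from 5818117 to 15718893 per bird. The files pair no transcript with a gene name, so neither ovarian marker genes nor the roles of single transcripts could be looked up, and transcripts are given by ID. Birds are numbered within their group, and the numbers pair no birds.

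A gene can give several transcripts when its RNA is spliced in different ways, started at different promoters or ended at different sites. In an assembled set of transcripts, near-identical gene copies and alleles can also appear as transcripts of 1 locus. In birds the ovary holds follicles of graded size, and the makeup of their granulosa, theca and germ cells changes as follicles grow. The sources used here give neither what a stem stands for nor how reads that match several of its transcripts were shared out. Counts of transcripts with the same stem are therefore uncertain, and a share below is a share of the counts as deposited.

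No member was at 0 in every bird. The members held 3.33% of all counts, and their median level was 19.9 CPM (counts scaled to a common library size). Stems with exactly 2 transcripts, just short of the limit, numbered 966, and their transcripts had a median level of 21.5 CPM. The median for stems with a single transcript was 26.4 CPM. The biological coefficient of variation, a measure of scatter between birds within groups, was taken for transcripts that passed the filter on low counts. Its median was 0.274 for members, 0.246 for transcripts of stems with 2, and 0.252 over all transcripts that passed. The filter kept 544 members (95.4%), against 93% of all transcripts. The other 26 members averaged at most 0.601 CPM. The last part of each ID is a suffix that begins with 0 or 1. It began with 1 in 22 members (3.86%) and in 4.49% of all transcripts, and 15 stems held both kinds.

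Most stems had no single dominant transcript. With the counts of the 20 birds pooled, the leading transcript held a median of 46.8% of its stem, with quartiles of 38.1% and 60.5%. It held over 50% in 70 of 166 stems (42.2%) and over 90% in 4 stems. In stems of 3 transcripts the median leading share was 49.1%, in stems of 4 it was 38.6%, and in larger stems 32.2%. The effective number of transcripts, which equals the number listed when all are equally abundant, had a median of 2.58 in stems of 3 and of 3.35 in stems of 4. At the other end, 30 members held under 5% of their stem and 6 held under 1%. The transcript with the lowest number led in 87 stems, and t1 led in 74 of the 138 stems that listed a t1.

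**Figure D1:**
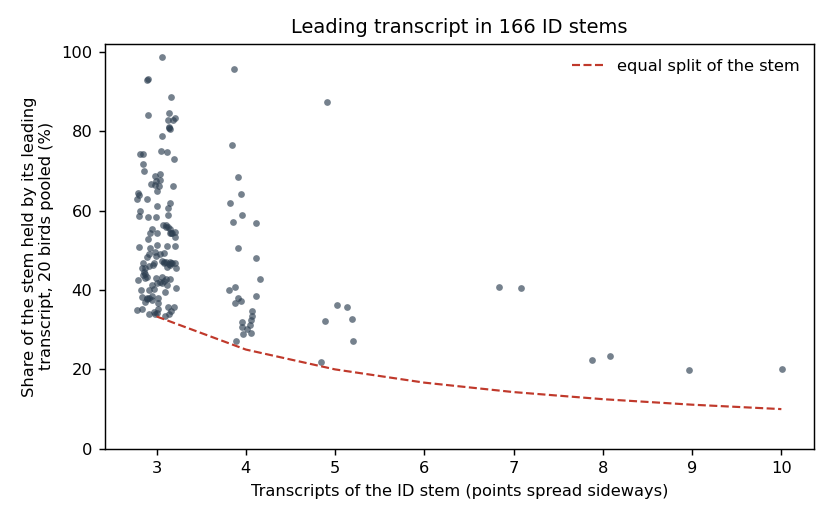
Share of the stem's counts held by its leading transcript (vertical axis, percent, counts of 20 birds pooled) against the number of transcripts of the stem (horizontal axis, spread sideways for legibility). Each point is 1 of 166 stems and the dashed line is an equal split. Leading shares run from 19.8% to 98.8%, and points on the line are stems shared almost evenly.

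The typical leading share overlapped between the groups. In each bird the median leading share over stems was taken, with the leader fixed from the pooled counts. It averaged 47.2% ± 1.32 (SD, n = 4) in experimental birds and 46.6% ± 1.2 (SD, n = 5) in control birds on Day 2, and 46.7% ± 0.95 (SD, n = 6) in experimental birds and 47.5% ± 0.588 (SD, n = 5) in control birds on Day 0. Every group's birds lay between 45.2% and 48.6%, and all 4 groups overlapped. The members' part of all counts was 3.28% ± 0.0916 (SD, n = 4) in experimental and 3.25% ± 0.331 (SD, n = 5) in control birds on Day 2, and 3.44% ± 0.415 (SD, n = 6) in experimental and 3.44% ± 0.135 (SD, n = 5) in control birds on Day 0.

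In the 6 stems with 7 or more transcripts, no transcript held as much as 50% of the pooled counts. The stem tree_swallow170884 had 10 transcripts, and its pooled leader t4 held 20.0%. The leader was t7 in 10 birds, t4 in 9 and t6 in 1. The share of t4 was 16.2%, 17.3%, 23.4% and 25.1% in experimental birds on Day 2, and 23.5%, 15.8%, 16.7%, 21.4% and 16.6% in control birds on Day 2. It ran from 16.4% to 20.7% in the experimental birds of Day 0, and from 17.1% to 25.6% in the control birds of that day. These 4 sets of values overlapped throughout. Every 95% Wilson binomial interval behind these shares was at most 4.34 points wide. Such intervals cover at most the counting error of independent reads, and reads are not independent molecules, so they can be too narrow. The 9 transcripts of tree_swallow004322 had t4 as pooled leader, with 17.9% to 22.8% in the 20 birds, and it led in 16 of them. The 8 of tree_swallow004501 had t6 as pooled leader, with 19.7% to 28.0%, and it led in 19 birds. The 7 of tree_swallow001588 were led in every bird by t11, with 39.2% to 43.9%. The stem tree_swallow170746 also had 7 transcripts, with fewer counts, and its leader t3 held 40.6% of the pooled counts and 19.7% to 49.4% in single birds.

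The other stem of 8 transcripts, tree_swallow005027, could hardly be divided. Its transcripts summed to 6 to 902 counts per bird, and 7 different transcripts led in at least 1 bird. The pooled leader t9 had 0 of 7 counts in control bird 1 of Day 2 and 0 of 6 counts in experimental bird 4 of Day 0. Taking 3 counts as the upper limit of a 0 gives shares of up to 42.9% and 50%. That limit is rough at so few counts and is not a Wilson interval. The widest Wilson interval in this stem spanned 60.3 points. In the bird of most counts, control bird 1 of Day 0, t9 held 22.2%.

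Each of the 5 most abundant stems was led by the same transcript in every bird, most strongly in tree_swallow001962 and tree_swallow003311. The stem tree_swallow001962 averaged 2039 CPM, and t3 held 97.3% to 99.5% of it. The stem tree_swallow003311 averaged 999 CPM, and t5 held 90.3% to 98.5%. The most abundant stem, tree_swallow008643, averaged 3462 CPM, and t1 held 63.5% to 72.6%. Its highest shares, 72.0% and 72.6%, were in experimental birds 1 and 3 of Day 0, while the other 18 birds lay at 68.4% or below. The stem tree_swallow001947 averaged 1197 CPM, and t1 held 47.6% to 54.0%. Wilson intervals in these 4 stems were at most 2.93 points wide.

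The remaining abundant stem, tree_swallow004345 (2097 CPM on average), fell into 2 sets of birds that followed neither treatment nor day. The share of t4 was 37.6%, 35.3%, 36.3% and 40.5% in experimental birds on Day 2. It was 36.2%, 35.9%, 37.9%, 35.8% and 10.3% in control birds on Day 2. In experimental birds on Day 0 the lowest was 10.6%, the median 35.7% and the highest 36.3%, and the control birds of that day had 35.5%, 10.7%, 37.0%, 35.7% and 36.7%. One bird in each of 3 groups thus had a low share, and the other 17 birds lay from 35.3% to 40.5%, 24.6 points above the highest of the 3. The leading transcript t5 held 88.1% to 89.0% in the same 3 birds and 58.0% to 63.9% in the other 17.

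The count of t4 per count of t5 was 0.116 to 0.121 in those 3 birds and 0.553 to 0.698 in the other 17. The level of t4 was 475 CPM in control bird 5 of Day 2, 175 CPM in experimental bird 2 of Day 0 and 287 CPM in control bird 2 of Day 0. In the same order t5 stood at 4084, 1453 and 2374 CPM. No other bird had less t4 than experimental bird 2 of Day 0, and none had more t5 than control bird 5 of Day 2. The third transcript, t2, held 0.70% to 3.16% in all 20 birds. No Wilson interval in this stem was wider than 2.36 points. The 3 birds were picked out by these shares, so no test was made between them and the rest.

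**Figure D2:**
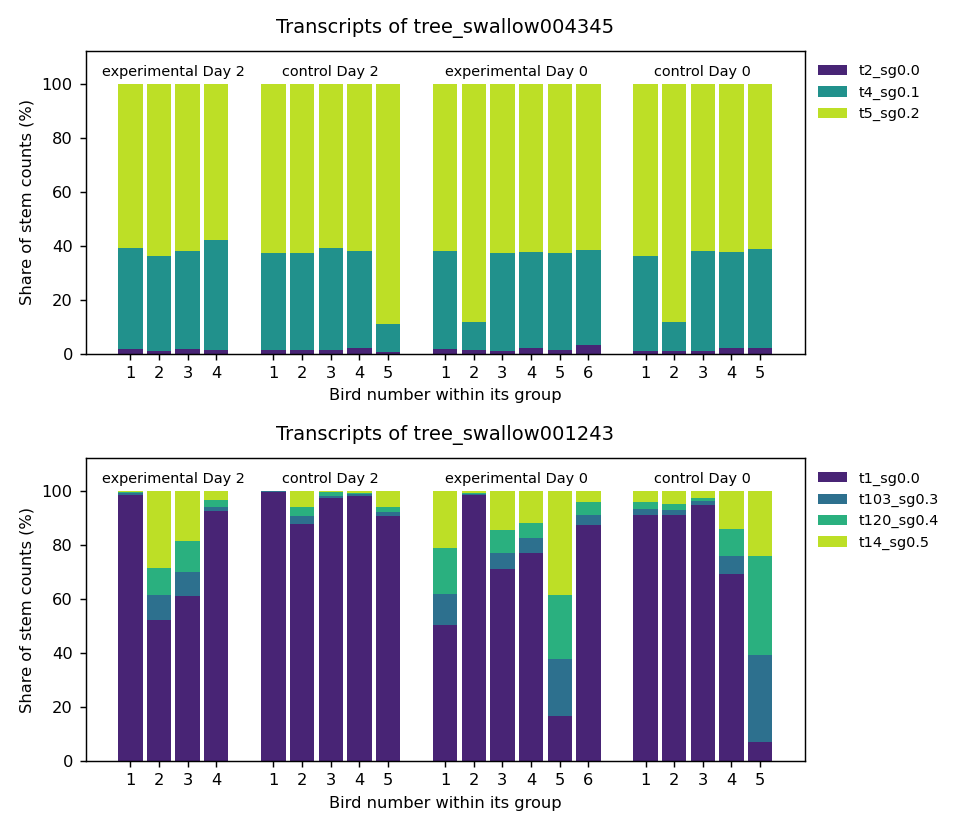
Share of the stem's counts (vertical axis, percent) held by each transcript of tree_swallow004345 (top) and tree_swallow001243 (bottom) in each of the 20 birds (horizontal axis, bird number within its group). In the top panel t4 holds 10.3% to 10.7% in 3 birds and 35.3% to 40.5% in 17, and in the bottom panel t1 holds from 7.10% to 99.5%.

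Shares in tree_swallow001243 varied most of all stems with 100 or more counts in every bird. Its t1 held 98.6%, 52.2%, 60.9% and 92.5% in experimental birds on Day 2 and 99.5%, 87.8%, 97.4%, 98.1% and 90.8% in control birds on Day 2. On Day 0 the experimental birds had a lowest share of 16.7%, a median of 74.1% and a highest of 98.5%, and the control birds had 90.9%, 91.0%, 94.6%, 69.3% and 7.10%. Bird 5 of either treatment on Day 0 was below 50%, and no other bird was. The Day 2 control birds were the narrowest set, and the others overlapped them.

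In that stem the level of t1 varied less than the levels of the other transcripts. Over the 20 birds t1 ran from 56.6 to 161 CPM. The transcript t103 ran from 0.381 to 257 CPM, t120 from 0.152 to 291 CPM, and t14 from 0.152 to 258 CPM. Their log2 levels rose and fell together over birds, with Pearson's r from 0.943 to 0.982 and Spearman's rho from 0.917 to 0.971 (permutation p adjusted over 728 pairs at most 3.9e-05). The leading transcript t1 moved against them, with r from -0.560 to -0.529 and rho from -0.505 to -0.487 (adjusted permutation p from 0.0138 to 0.0389). Without the 2 birds farthest from the median of t1 those r values were -0.571 to -0.540. The difference in the share of t103 between the days in control birds gave -4.31 as its log2 fold change (SE 1.53) and an edgeR adjusted p of 0.9998, and 1 bird, control bird 5 of Day 0, stood far above the rest. In bulk tissue, fewer cells of a type and less RNA per cell cannot be told apart.

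By the widest range of any 1 transcript's share, the next stems were tree_swallow000261, where t3 ranged over 65.6 points, and tree_swallow000278, where t8 ranged over 53.9 points. In tree_swallow000261 the leading t3 held 58.0% to 72.8% in experimental and 41.7% to 56.2% in control birds on Day 2, and 16.8% to 68.8% in experimental and 38.8% to 82.4% in control birds on Day 0. The 2 Day 2 groups did not overlap, and the Day 0 birds together spanned both. The stem was picked for the wide range of this share, and edgeR called 0 member shares for treatment on Day 2. How many of all shares had no overlap between these groups is not given here. For t2 of this stem the share difference between days in experimental birds had the smallest p of the lower shares (log2 fold change -0.87, SE 0.399, edgeR adjusted p = 0.9998). The other transcripts, t1 and t2, moved together (r = 0.990, rho = 0.977), and each had r of -0.261 or -0.275 with t3, which did not pass (adjusted permutation p = 0.288 and 0.260).

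In tree_swallow000278 the transcript t8 held 59.9% in 1 bird, control bird 5 of Day 2, while the other 19 lay at 5.97% to 26.4%. Its level in that bird was 115 CPM, against 3.75 to 31.4 CPM elsewhere, while t1 and t3 kept moving together over the 20 birds (r = 0.968, rho = 0.973). The lowest share of t8, 5.97%, was that of experimental bird 3 of Day 0. The share difference on Day 2, experimental against control, gave -1.09 on the log2 scale (SE 0.419, edgeR adjusted p = 1). The difference between days in control birds gave 1.16 (SE 0.390, edgeR adjusted p = 0.9998), and the interaction -1.54 (SE 0.561, edgeR adjusted p = 1).

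Other stems kept nearly the same shares in all birds. In tree_swallow000466 the shares of t1, t2 and t3 were 33.9%, 33.2% and 32.9% of the pooled counts, and t1 stayed between 32.5% and 35.4%. In tree_swallow000170, with 5 transcripts, the pooled leader t5 stayed between 19.9% and 23.0%, and 4 transcripts led in at least 1 bird. In tree_swallow005702, with 3, the pooled leader t2 held 34.4% and led in only 7 birds, while each of the other two led in some birds.

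A chi-square per degree of freedom, which is 1 when the shares differ between birds by counting error only, measured this over the 133 stems with 100 or more counts in every bird. Its median was 3.74, and it exceeded 2 in 91 stems. It was 1.03 in tree_swallow000466, 429 in tree_swallow001243 and 612 in tree_swallow004345. The leading share ranged by a median of 11.5 points over the 20 birds. In 76 of these stems the same transcript led in every bird, and in 57 the leader changed. The leading share of tree_swallow001962 varied least, by 2.16 points, yet its chi-square was 21.1, since its counts were large.

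**Figure D3:**
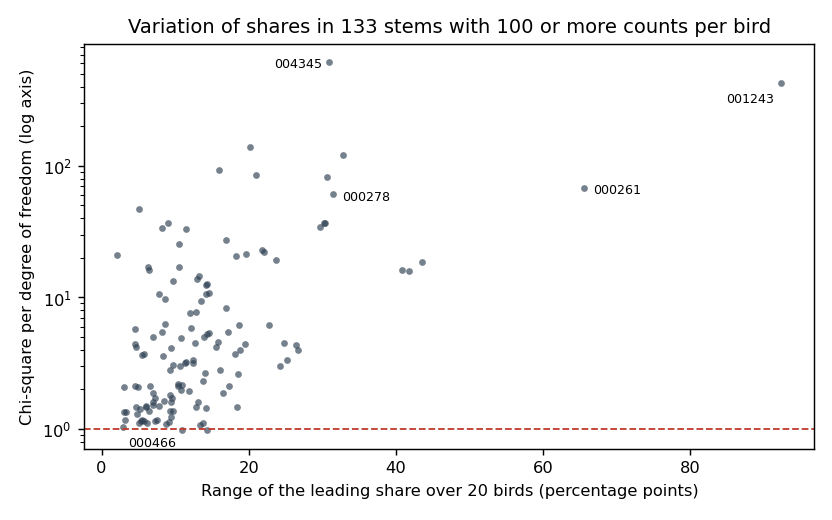
Chi-square per degree of freedom for equal shares in all 20 birds (vertical axis, log scale) against the range of the leading share over birds (horizontal axis, percentage points), with 1 point for each of 133 stems. The dashed line at 1 is counting error alone. Points are labelled by the number in the stem's ID: tree_swallow004345 has the highest chi-square, 612, and tree_swallow001243 the widest range, 92.4 points.

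Gaps between neighbouring birds were scanned in the shares of the 458 members of these stems, with 2 or more birds on each side. A gap of 20 points or more was found for 3 transcripts, t4 and t5 of tree_swallow004345 and t1 of tree_swallow001243. The next largest gap, outside those 2 stems, was 9.99 points. This scan was made after the shares had been seen.

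Transcripts of a stem mostly moved together over birds. Pairs were compared where both transcripts averaged 1 CPM or more, which gave 728 pairs in 154 stems. The median Pearson's r of their log2 CPM was 0.761. A positive r passed for 579 pairs and a negative r for 8 pairs (permutation test with 100000 resamples, adjusted over the 728 pairs). By Spearman's rho, 573 were positive and 7 negative. For the 879 pairs in stems of 2 transcripts the median r was 0.791, and for 137347 pairs of member transcripts from different stems it was 0.00899. A negative r occurred in 6.73% of pairs within stems of 3 or more, in 4.55% within stems of 2 and in 49.1% between stems. All pairs share the same 20 libraries, and pairs of a stem share transcripts. With each bird taken as its deviation from the mean of its group, the median was 0.755.

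**Figure D4:**
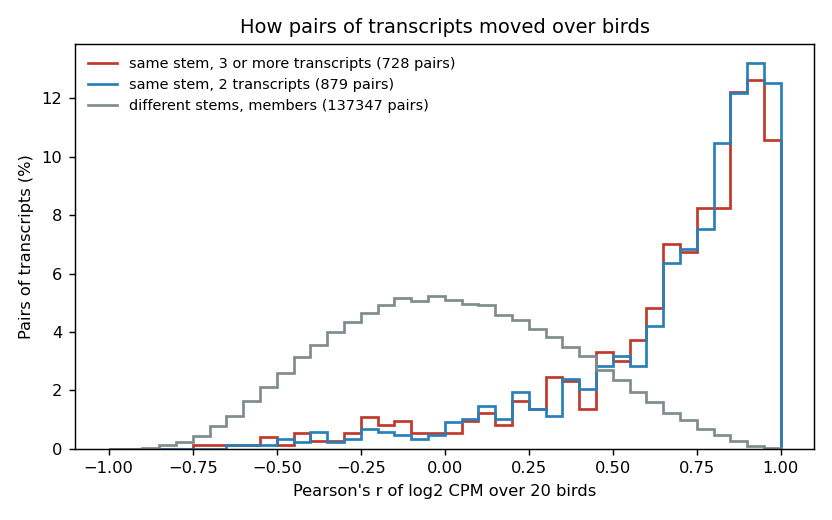
Distribution of Pearson's r of log2 CPM over the 20 birds (horizontal axis) as percent of pairs (vertical axis), for pairs in the same stem and for member transcripts of different stems. Pairs within stems of 3 or more have a median of 0.761 and pairs between stems a median of 0.00899.

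In 94 stems every pair passed as positive, and in 41 stems the lowest r of any pair was above 0.8. The 3 stems that moved together most closely were tree_swallow000112, tree_swallow009689 and tree_swallow000705. In tree_swallow000112 the lowest r was 0.984, and the shares of t1, t2 and t3 were 35.7%, 32.0% and 32.2% of the pooled counts. Its summed level still ran from 428 to 595 CPM in experimental and from 366 to 650 CPM in control birds on Day 2, and from 251 to 635 CPM in experimental and from 282 to 566 CPM in control birds on Day 0. The lowest r was 0.983 in tree_swallow009689, whose leader t1 held 48.5% to 55.5%, and 0.977 in tree_swallow000705, whose leader t6 held 35.3% to 40.4%.

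Pairs below 0 occurred in 24 stems, and in 5 stems a negative pair passed. The lowest r was between t2 and t4 of tree_swallow005035. The level of t2, the leader, was 92.1, 66.4, 43.3 and 73.7 CPM in experimental birds on Day 2 and 85.2, 66.6, 74.6, 77.0 and 70.8 CPM in control birds on Day 2. It ran from 37.9 to 93.1 CPM in the experimental birds and from 39.7 to 69.7 CPM in the control birds of Day 0. The level of t4 was 4.62, 8.72, 8.56 and 6.91 CPM in experimental birds and 5.63, 8.46, 5.96, 6.13 and 5.37 CPM in control birds on Day 2. It ran from 4.05 to 10.6 CPM in the experimental and from 6.37 to 8.42 CPM in the control birds of Day 0.

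Birds high in t2 were low in t4, with no separation by group. Over the 20 birds r was -0.743 and rho -0.797 (adjusted permutation p = 0.000308 and 0.000117). Without experimental birds 1 and 3 of Day 0, the farthest from the median of t2, r was -0.741. The third transcript of the stem, t3, went with t2 (r = 0.644, rho = 0.526, adjusted permutation p = 0.00339 and 0.0248). The share of t2 ran from 69.4% in experimental bird 3 of Day 0 to 86.3% in experimental bird 2 of Day 0.

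The next 2 stems by lowest r differed in how far they rested on single birds. In tree_swallow009182 the pair of t1 and t3 had r = -0.670 (adjusted permutation p = 0.00375) but rho = -0.248 (adjusted permutation p = 0.321). Without experimental birds 3 and 1 of Day 0, where t1 reached 421 and 292 CPM, r was -0.0527, so the relation rests on those 2 birds. In tree_swallow004776 the pair of t1 and t3 had r = -0.612 and rho = -0.507 (adjusted permutation p = 0.00582 and 0.0317), and r was -0.409 once control bird 2 (Day 2) and experimental bird 1 (Day 0) were left out. Its leader t1 held 30.8% to 72.5% over the 20 birds and led in 18 of them. The fifth stem with a passing negative pair, besides tree_swallow001243, was tree_swallow001006 (t1 and t3, r = -0.468, rho = -0.462, adjusted permutation p = 0.0460 and 0.0519).

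No share passed the test for treatment or day. The log2 fold change of each transcript was tested against that of its whole stem in edgeR (diffSpliceDGE, quasi-likelihood). This covered 2333 transcripts, of which 543 were members. Of the members, 0 were called at an adjusted p under 0.05 in each of the 5 comparisons, and over all tested transcripts 0% were called. At an unadjusted p under 0.05 there were 3 members for treatment on Day 0, where 0.257% of all transcripts passed, and 3 on Day 2 (0.3% of all). There were 7 for the treatment by day interaction, that is the treatment difference of Day 2 minus that of Day 0 (0.429% of all). There were 5 for the days in experimental birds (0.343% of all) and 7 for the days in control birds (0.429% of all). These percentages of all transcripts lie below the 5% that evenly spread p-values would give. Of the 543 members 0.552%, 0.552%, 1.29%, 0.921% and 1.29% passed in the same order, above the percentage of all transcripts in each comparison.

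The share test was therefore repeated with limma on the log2 ratio of a transcript to the rest of its stem, over 2372 transcripts. Again 0 of 544 members were called. At an unadjusted p under 0.05 it passed 14 members for treatment on Day 0 (5.14% of all transcripts passed), 19 on Day 2 (3.88%), 20 for the interaction (4.34%), 21 for the days in experimental birds (4.64%) and 18 for the days in control birds (4.01%). Here the members' percentages, from 2.57% to 3.86%, were below those of all transcripts in each comparison, so the 2 tests placed the members on opposite sides of the whole table. In a stem of 2 transcripts the 2 log ratios mirror each other, so they are not separate tests within the percentage of all. Over the 544 members the 4 groups held a mean of 14.3% of the variance of these log ratios. A random grouping of 20 birds gives 15.8%, and in stems of 2 transcripts the mean was 15.4%.

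The members of smallest p in the edgeR share test, in each direction of each comparison, did not pass. On Day 0 the share of tree_swallow000836t14_sg0.3 was 0.0191% to 0.0729% in experimental birds, against 0.130%, 0.0361%, 0.244%, 0.115% and 5.81% in control birds (log2 fold change -5.04, SE 1.72, edgeR adjusted p = 0.9999). Its level was 50.7 CPM in control bird 5, against at most 1.11 CPM in the other 4 control birds. On Day 2 the share of tree_swallow005113t11_sg0.1 was 11.4%, 19.6%, 21.9% and 14.5% in experimental birds and 7.06%, 5.15%, 17.2%, 5.58% and 9.73% in control birds (log2 fold change 0.96, SE 0.421, edgeR adjusted p = 1). These groups overlapped through control bird 3. On Day 0 the same share averaged 11.9% ± 7.50 (SD, n = 6) in experimental and 17.1% ± 6.98 (SD, n = 5) in control birds, and the interaction had a log2 difference of 1.61 (SE 0.567, edgeR adjusted p = 1). For tree_swallow001006t3_sg0.2 on Day 0 the share averaged 2.82% ± 2.11 (SD, n = 6) in experimental and 1.29% ± 0.434 (SD, n = 5) in control birds (edgeR adjusted p = 0.9999). For tree_swallow003311t1_sg0.0 the share averaged 4.59% ± 2.32 (SD, n = 4) in experimental birds on Day 2 and 3.62% ± 1.87 (SD, n = 6) on Day 0 (edgeR adjusted p = 0.9998).

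Levels of single members did not pass either. By edgeR's quasi-likelihood test over 13742 transcripts, 0 of 544 members were called in each of the 5 comparisons, while 0.00728% of all transcripts, that is 1, were called for treatment on Day 2 and 0% in the other comparisons. At an unadjusted p under 0.05 there were 21 members for treatment on Day 0 (3.86%, against 7.62% of all transcripts), 22 on Day 2 (4.04%, against 6.08%) and 32 for the interaction (5.88%, against 11.4%). There were 16 for the days in experimental birds (2.94%, against 5.1%). For the days in control birds there were 73 (13.4%, against 13.7% of all), 17 higher and 56 lower on Day 2. The split by direction over all transcripts is not given here, and transcripts of a stem mostly moved together, so they are not separate cases. The median log2 fold change of members in that last comparison was -0.13, against -0.03 over all transcripts. DESeq2 called 0, 0, 2, 0 and 6 members in the same order, and 0.102%, 0.124%, 0.569%, 0.0657% and 1.4% of all transcripts. With limma voom 0 members were called.

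Summed counts of stems gave like results, with 0 of 162 stems called by edgeR in any comparison. Over all 12473 stems 1, or 0.00802%, was called for treatment on Day 2 and 0% in the others. At an unadjusted p under 0.05 there were 6 stems for treatment on Day 0 (7.71% of all stems passed), 5 on Day 2 (6.33%), 9 for the interaction (11.7%), 2 for the days in experimental birds (5.03%) and 23 for the days in control birds (14.1%). Those 23 were 14.2% of the 162 stems, near the percentage of all stems, and 8 were higher and 15 lower on Day 2. The split by direction over all stems is not given here. The median log2 fold change in that comparison was -0.07 over the 162 stems, against -0.01 over all stems. DESeq2 called 0 stems for treatment on Day 0 (0.112% of all), on Day 2 (0.129%) and for the days in experimental birds (0.0723%), 1 for the interaction (0.66%) and 2 for the days in control birds (1.49%).

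The stem nearest to a call was tree_swallow000226, whose 3 transcripts were all lower in control birds on Day 2 than on Day 0. The level of t2 was 27.0, 20.5, 30.0, 33.9 and 29.2 CPM in control birds on Day 2 and 46.9, 47.4, 46.1, 60.6 and 42.1 CPM on Day 0. The level of t1 was 32.9, 34.1, 40.9, 43.3 and 34.8 CPM in control birds on Day 2 and 60.8, 57.1, 55.9, 68.2 and 46.8 CPM on Day 0. The level of t3 was 37.0, 50.8, 45.4, 44.5 and 43.8 CPM in control birds on Day 2 and 67.5, 70.7, 63.0, 75.9 and 78.0 CPM on Day 0. The days did not overlap for any of the 3. The stem was picked for its small p, and 13.7% of all transcripts had an unadjusted edgeR p under 0.05 between these days. How many of all transcripts had no overlap is not given here.

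The shares in tree_swallow000226 overlapped between the days. In control birds t1 held 33.9% ± 1.54 on Day 2 and 32.5% ± 2.61 on Day 0, t2 held 25.6% ± 3.54 and 27.3% ± 1.61, and t3 held 40.5% ± 4.54 and 40.2% ± 3.85 (SD, n = 5 each day). The summed level averaged 110 CPM ± 9.67 on Day 2 and 177 CPM ± 16.0 on Day 0 (SD, n = 5 each). On the log2 scale the sum differed by -0.68 (SE 0.120, edgeR adjusted p = 0.0859), and t2 by -0.79 (SE 0.153, edgeR adjusted p = 0.0951). DESeq2 called the sum (adjusted p = 7.58e-05) and all 3 transcripts (adjusted p from 0.000639 for t2 to 0.00803 for tree_swallow000226t1_sg0.0). Without experimental bird 1 of Day 2, edgeR called the sum (adjusted p = 0.0392), and over the 20 fits without 1 bird the smallest adjusted p of any member stem ran from 0.0392 to 0.212.

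In the same stem the days lay closer in experimental birds. Their summed level averaged 135 CPM ± 23.9 (SD, n = 4) on Day 2 and 138 CPM ± 15.2 (SD, n = 6) on Day 0, a log2 difference of -0.02 (SE 0.122, edgeR adjusted p = 0.996). The treatment by day interaction, which tests that contrast itself, did not pass in edgeR (log2 difference 0.66, SE 0.170, adjusted p = 0.218) and passed in DESeq2 (adjusted p = 0.0357).

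**Figure D5:**
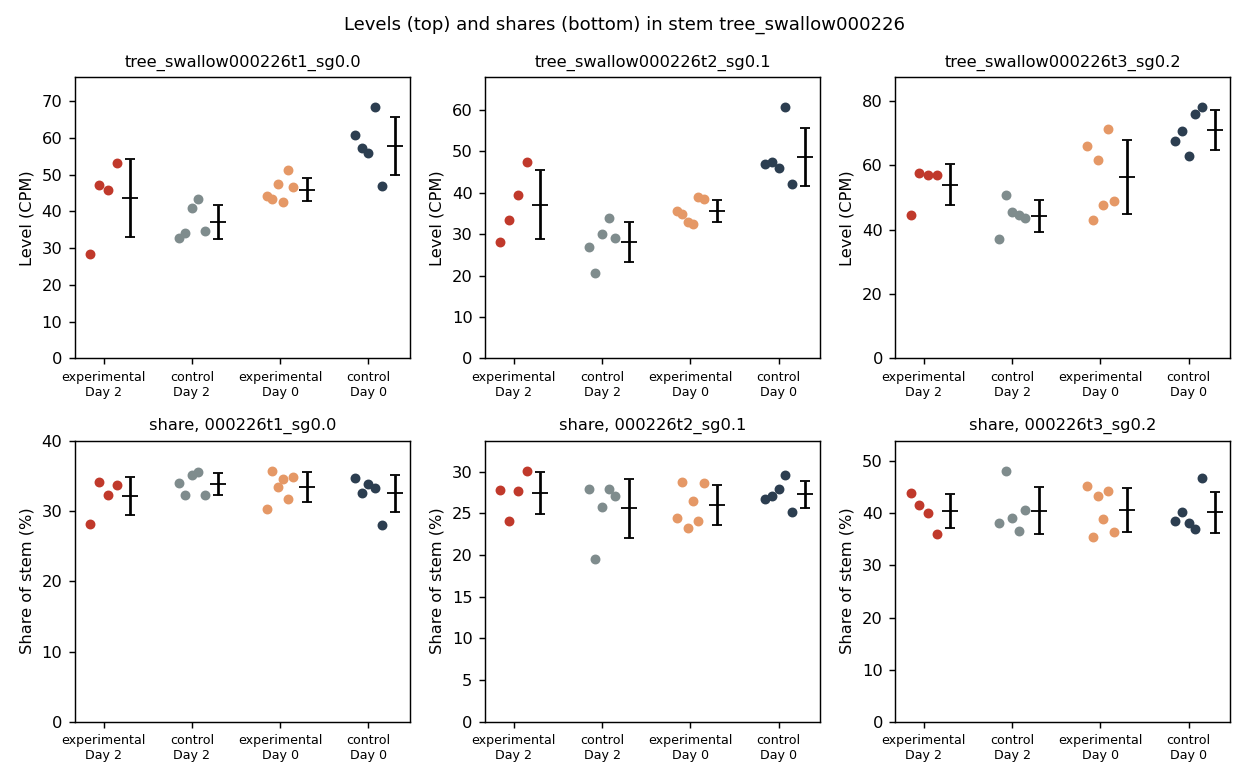
Levels in CPM (top row) and shares of the stem in percent (bottom row) of the 3 transcripts of tree_swallow000226. Each point is a bird, and the bar beside each group is its mean with the SD (n = 4 experimental and 5 control birds on Day 2, 6 experimental and 5 control on Day 0). The control levels of t2 run from 20.5 to 33.9 CPM on Day 2 and from 42.1 to 60.6 CPM on Day 0, while its shares overlap.

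A stem with the opposite direction was tree_swallow011015. Its summed level averaged 74.6 CPM ± 8.81 on Day 2 and 51.5 CPM ± 4.10 on Day 0 in control birds (SD, n = 5 each; log2 fold change 0.55, SE 0.141, edgeR adjusted p = 0.155). In control birds its t3 had 32.6, 25.3, 36.2, 28.7 and 26.2 CPM on Day 2 and 22.3, 16.8, 18.9, 19.4 and 16.8 CPM on Day 0, without overlap (log2 fold change 0.66, SE 0.178, edgeR adjusted p = 0.168). DESeq2 called t3 (adjusted p = 0.0246). This transcript, too, was picked for its small p, and the share of all transcripts without overlap is not given here. On Day 2 itself t3 averaged 19.8 CPM ± 4.67 (SD, n = 4) in experimental and 29.8 CPM ± 4.56 (SD, n = 5) in control birds, with overlap through experimental bird 4, at 25.4 CPM (log2 fold change -0.59, SE 0.190, edgeR adjusted p = 0.682).

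In tree_swallow005749 the order of the experimental and control means was reversed between the days for 1 transcript. The level of t2 was 26, 38.7, 33.7 and 21.1 CPM in experimental birds and 19, 12.1, 22, 15.7 and 15.2 CPM in control birds on Day 2. On Day 0 the experimental birds had a lowest level of 9.82, a median of 12.1 and a highest of 28.3 CPM, and the control birds had 34.7, 31.4, 15.4, 34.2 and 32.2 CPM. Groups overlapped on both days. The interaction had a log2 difference of 1.76 (SE 0.400) and did not pass in edgeR (adjusted p = 0.174) but did in DESeq2 (adjusted p = 0.0120). Its share of the stem averaged 18.7% ± 4.76 (SD, n = 4) in experimental and 13.6% ± 4.92 (SD, n = 5) in control birds on Day 2, and 12.4% ± 4.08 (SD, n = 6) in experimental and 17.4% ± 4.24 (SD, n = 5) in control birds on Day 0.

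The other members with the smallest p in a level comparison did not pass. On Day 0, tree_swallow009235t2_sg0.1 averaged 513 CPM ± 168 (SD, n = 6) in experimental and 378 CPM ± 66.2 (SD, n = 5) in control birds (log2 fold change 0.44, SE 0.186, edgeR adjusted p = 0.632), with overlap. The level of tree_swallow000836t14_sg0.3, named above for its share, had the smallest p of the lower levels on Day 0 (log2 fold change -5.39, SE 1.35, edgeR adjusted p = 0.447), again with 1 far control bird. The other Day 0 birds had few counts of it. On Day 2, tree_swallow004069t5_sg0.2 averaged 25.6 CPM ± 12.5 (SD, n = 4) in experimental and 12.0 CPM ± 4.31 (SD, n = 5) in control birds (log2 fold change 1.10, SE 0.360, edgeR adjusted p = 0.682), with overlap. In the interaction the lowest p of a negative difference was that of tree_swallow011015t3_sg0.1 (log2 difference -0.77, SE 0.255, edgeR adjusted p = 0.298). Between the days in experimental birds, tree_swallow005749t2_sg0.1 was the transcript of smallest p among those higher on Day 2 (log2 fold change 0.94, SE 0.284, edgeR adjusted p = 0.899). In the other direction, tree_swallow010114t1_sg0.0 averaged 1.28 CPM ± 0.268 (SD, n = 4) on Day 2 and 2.94 CPM ± 0.983 (SD, n = 6) on Day 0 (log2 fold change -1.19, SE 0.371, edgeR adjusted p = 0.899). Its days did not overlap, but it was picked for its small p, and the share of all transcripts without overlap is not given here.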

How the data were processed

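Per the labels, RNA was extracted with Trizol from ovaries frozen in the field, and libraries were made with a stranded kit that selects mRNA. The submitters' processing notes name SAMtools, Bowtie2 2.4.2, fastp 0.20.1 and CASAVA. Not given in the sources used here are their roles, the reference and the counting program. What the authors deposited are raw read counts for each transcript in each bird, without normalization. The line that names no transcript had 0 counts and was left out.

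Shares are a transcript's counts over the summed counts of its stem. Counts were filtered with filterByExpr (minimum count 10, total 15), scaled by TMM and fitted over all transcripts in edgeR 4.0.16 (R 4.3.3, robust quasi-likelihood, 4 group means, no covariate). Adjusted p-values are Benjamini-Hochberg values, called under 0.05. Levels and stem sums were adjusted over all transcripts or stems tested, shares over the transcripts of each share test, and correlations over the tested pairs. Stem sums and shares (diffSpliceDGE) were fitted alike. Standard errors were derived from the same fits, as the absolute log2 fold change over the square root of the test's F statistic. They therefore add nothing to the p-value beside them. Correlations used log2 CPM with a prior count of 2, in numpy 2.4.6 and scipy 1.17.1. A p-value is two-sided, and 100000 resamples can give no p below 1e-05.

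Alternatives were RLE factors, no filter, a filter of 1 CPM in 10 birds, DESeq2 1.42.0, limma 3.58.1 (voom and diffSplice), fits of the compared groups alone, a threshold of 0.10 on adjusted p, and leaving out 1 bird at a time. The limma log ratio test (offset 0.5) and the fit without control birds 5 of both days were added after seeing the data. The tests were run on simulated data first. Those counts were drawn independently for each transcript, unlike transcripts of a stem that share reads or move together, and nothing is concluded from them here. The named stems are the 5 with most transcripts (ties by pooled counts), the 5 most abundant, the 3 closest and 3 least alike in r, the 3 with the widest range of any transcript's share and the 3 with the narrowest range of the leading share (100 or more counts per bird), and the 3 whose most frequent leader led in the fewest birds. For each comparison the member of smallest p in each direction is named for level and for share; other members that are named were chosen after their values were seen. The members, lists and rules were chosen with earlier results of these data known.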

Additional observations from a re-analysis of the deposited data

Results flagged for a closer look

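The highest or lowest bird of each group was compared with its other birds in 152 group tests of the named values. By Dixon's criterion 21 values stood apart. For independent values that were not selected, chance gives about 1 in 20 (7.60). Many named values were chosen for a wide range, a low r or a small p, and some are the level and share of 1 transcript. The 7.60 is therefore no baseline for the 21. The share of t5 of tree_swallow004345 stood apart in experimental bird 2 of Day 0 (88.1%, the others 61.5% to 62.9%), in control bird 2 of Day 0 (88.3%, the others 61.1% to 63.7%) and in control bird 5 of Day 2 (89.0%, the others 60.7% to 62.9%).

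Control bird 5 of Day 0 stood apart in 5 values. Its share of t1 of tree_swallow001243 was 7.10% (the others 69.3% to 94.6%), and its share of t103 of the same stem was 32.2% (the others 1.47% to 6.62%). Its share of t1 of tree_swallow004776 was 60.7% (the others 37.0% to 41.1%). The level of tree_swallow000836t14_sg0.3 in that bird was 50.7 CPM (the others 0.631 to 1.11 CPM), and its share was 5.81% (the others 0.0361% to 0.244%). In control bird 3 of Day 2 the same transcript had 4.18 CPM (the others 0.0761 to 0.423 CPM) and a share of 4.55% (the others 0.0366% to 0.190%). The low values of this transcript rest on few counts. Control bird 5 of Day 2 was also low in t1 of tree_swallow000278, at 20.2% (the others 39.7% to 45.8%), and experimental bird 3 of Day 0 was low in t8 of that stem, at 5.97% (the others 18.2% to 23.6%).

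On Day 2 a bird stood apart in 6 more shares or levels. Experimental bird 4 had 21.8% of tree_swallow004322 in t4 (the others 19.2% to 19.5%) and 8.04% of tree_swallow003311 in t1 (the others 3.0% to 3.67%). Experimental bird 2 had 43.0% of tree_swallow001588 in t11 (the others 39.8% to 40.2%), and experimental bird 1 had 439 CPM of tree_swallow009235t2_sg0.1 (the others 394 to 401 CPM). Control bird 2 had 36.9% of tree_swallow000112 in t1 (the others 35.6% to 35.9%) and 19.4 CPM of tree_swallow004069t5_sg0.2 (the others 7.99 to 11.1 CPM).

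On Day 0, experimental bird 4 had 38.0% of tree_swallow005702 in t2 (the others 32.3% to 33.9%). Control bird 3 had 15.4 CPM of tree_swallow005749t2_sg0.1 (the others 31.4 to 34.7 CPM), and control bird 4 had 60.6 CPM of tree_swallow000226t2_sg0.1 (the others 42.1 to 47.4 CPM).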

How the results depend on the processing

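Of 417 recounts of called members over the alternatives, 410 gave the same count, among them all 139 for shares, where the smallest adjusted p of any member was 0.439. For the days in control birds, an adjusted p under 0.10 called 2 transcripts and 1 stem sum, all of tree_swallow000226. How many of all transcripts and of all stems passed at 0.10 is not given here. In the same comparison DESeq2 called 6 transcripts (1.4% of all) and 2 stem sums (1.49% of all). For the treatment by day interaction DESeq2 called 2 transcripts (0.569% of all) and 1 stem sum (0.66% of all). With 1 bird left out, 0 to 1 stem sums were called for the days in control birds, the 1 being tree_swallow000226 without experimental bird 1 of Day 2, and 0 members in every other such fit. Without control birds 5 of both days 0 members were called, and the smallest adjusted p for the days in control birds was 0.201 for stem sums and 0.247 for transcripts. The median r within stems was 0.790 with both transcripts at 5 CPM or more, against 0.761, and 0.746 to 0.768 with 1 bird left out. The median over stems of the mean leading share was 47.3%, 48.3% in stems with 100 or more counts in every bird and 46.8% from pooled counts. The causes of these differences were not tested. No paired analysis was possible because each number in the sample titles occurs once and ties no 2 birds. Low counts limit the shares of stems such as tree_swallow005027 and of single transcripts such as tree_swallow000836t14_sg0.3. The 4 to 6 birds of a group limit every comparison.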
